A study of Mus musculus with 22 samples.

Results

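The genes described here are 10 chemokines, the small secreted proteins that draw leukocytes out of the blood and into a tissue: the CC chemokines Ccl2, Ccl3, Ccl4, Ccl5, Ccl6, Ccl7, Ccl8 and Ccl9 and the interferon-induced CXC chemokines Cxcl9 and Cxcl10. They were selected by gene symbol, as every probe that the array annotation assigns to one of these names, which gave 13 of 38563 probes and 10 of 18524 genes. Ccl4, Ccl7 and Cxcl10 had 2 probes each and the other 7 genes 1 each. The arrays measured RNA of ischemic gastrocnemius muscle from 22 male C57BL/6N mice, 8 to 12 weeks of age and labeled as non-diabetic, 1 array per mouse. All of them had hindlimb ischemia by removal of the femoral artery and were injected once, on day 5, into the peritoneum with 12 mg/kg of a locked nucleic acid (LNA) oligonucleotide, and the muscle was taken on day 7. ANTI-210, the oligonucleotide against the hypoxia-induced microRNA miR-210, was given to 11 mice, and a scrambled oligonucleotide (SCR) was given to the other 11 mice. The series text names the reagents as GAPmers, which lead to cleavage of their target RNA, whereas the methods name them as microRNA inhibitors. No probe for miR-210 itself was found on the array, so that its blockade could not be checked in these data. By quantitative PCR of ischemic quadriceps muscle, the paper reports lower miR-210 after ANTI-210 than after SCR.

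A chemokine binds to receptors coupled to G proteins on the leukocyte and sets the direction in which the cell migrates. In injured skeletal muscle, monocytes that enter through the CCR2 receptor become the macrophages that clear dead fibers and then accompany regeneration, so that chemokine transcripts are widely used to describe the inflammatory phase of muscle repair. Ccl2, Ccl7 and Ccl8 encode monocyte chemoattractant proteins, Ccl3, Ccl4 and Ccl5 encode inflammatory chemokines that several leukocyte types make, and Ccl6 and Ccl9 encode ligands of CCR1 made by myeloid cells. Cxcl9 and Cxcl10 are induced by interferons and attract activated T and NK cells through CXCR3. Macrophages, T cells, endothelial cells and muscle fibers can all contribute to these transcripts in a whole muscle, where fewer cells of a type and less RNA per cell cannot be told apart.

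The 8 CC genes lay on chromosome 11 of GRCm38.p6, in separate groups. Ccl2, Ccl7 and Ccl8 lay between positions 82035577 and 82116799, and Ccl3, Ccl4, Ccl5, Ccl6 and Ccl9 between 83525778 and 83664683. The 2 CXC genes lay on chromosome 5 between positions 92321331 and 92348889. In this annotation the records of Ccl3 and Ccl4 overlapped, and the positions of the probes were not used here. The mature microRNA that ANTI-210 is directed against is shown with its seed (bases 2 to 8) in capitals, as RefSeq gives it on chr7:141221407-141221428, minus strand:
mmu-miR-210-3p: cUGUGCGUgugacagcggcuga

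Because Cxcl10 and Cxcl9 had the largest differences between the groups, their promoters are shown, from 250 bases before to 50 bases after the transcription start, from RefSeq on GRCm38.p6. Cxcl10 lies at chr5:92348840-92349139 and Cxcl9 at chr5:92328030-92328329, both on the minus strand. Capitals mark matches to the motifs searched on both strands, namely the interferon-stimulated response element (TTTC, any 2 bases, TTTC), the AP-1 motif TGANTCA and the kappaB motif:
Cxcl10: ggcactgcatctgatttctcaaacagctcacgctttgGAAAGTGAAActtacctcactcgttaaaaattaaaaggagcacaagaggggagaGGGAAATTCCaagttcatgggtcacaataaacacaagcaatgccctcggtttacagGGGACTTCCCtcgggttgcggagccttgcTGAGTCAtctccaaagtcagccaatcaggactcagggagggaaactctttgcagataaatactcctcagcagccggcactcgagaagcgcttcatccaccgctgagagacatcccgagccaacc
Cxcl9: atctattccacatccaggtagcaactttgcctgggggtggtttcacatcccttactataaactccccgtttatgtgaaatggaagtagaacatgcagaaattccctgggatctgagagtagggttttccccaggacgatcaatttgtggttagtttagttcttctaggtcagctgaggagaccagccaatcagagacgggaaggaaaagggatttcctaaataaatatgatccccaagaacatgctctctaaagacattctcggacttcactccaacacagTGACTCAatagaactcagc

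In the Cxcl10 window the response element lay at -213 to -204 on the reverse strand, the kappaB matches at -159 to -150 and -103 to -94, and the AP-1 match at -74 to -68. The Cxcl9 window held 1 AP-1 match, after the start, at 31 to 37. Among all 32851 promoters of this length, 3.44% held the response element, 4.51% the kappaB motif and 7.81% the AP-1 motif. Promoters of 6 of the 10 genes were matched (Ccl3, Ccl6, Ccl8, Ccl9, Cxcl9 and Cxcl10), and apart from the CXC genes only Ccl9 held a match, to AP-1 and to kappaB. The matched motifs did not overlap each other, and a match describes letters in a window, not a bound site.

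Values were deposited on a log scale, taken as log2, and ran from 4.35 to 15.4. A probe whose mean over the 22 mice was under 6 is called near the floor here, which applied to 62.6% of all probes and, among the 13 chemokine probes, to Ccl2, both probes of Cxcl10 and the dimmer probe of Ccl4. The skeletal muscle genes Acta1, Ckm, Actn3, Atp2a1 and Mylpf averaged 14.8 to 15.3 over the mice, so the label was met as to skeletal muscle. These genes do not tell the gastrocnemius from other muscles. Arrays correlated with each other at 0.947 to 0.997 and no pair was identical. The first 3 replicate numbers of both groups stood apart from numbers 4 to 11 on the second principal component, which held 7.31% of the variance. The labels name no batch, and values of the chemokines are therefore given for all mice and within both sets of numbers.

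No chemokine gene passed the unadjusted threshold of p = 0.05 between ANTI-210 and SCR muscles in the limma fit over all probes, whereas 3.41% of all probes did, and after Benjamini-Hochberg adjustment 0 of the 13 had an adjusted p under 0.05 (p = 1 for each), against 0.00519% of all probes. All 10 genes had a positive difference, from 0.02 to 0.79 on the log2 scale with a median of 0.25, against a median of -0.00364 over all 18524 genes, of which 47.8% were positive. The 10 genes also varied together from mouse to mouse, so these signs were not 10 separate observations. The differences were largest for the CXCR3 ligands Cxcl10 and Cxcl9, intermediate for Ccl4, Ccl3 and Ccl5, and at most 0.16 for Ccl7, Ccl2, Ccl8, Ccl6 and Ccl9 on their brightest probes.

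**Figure D1:**
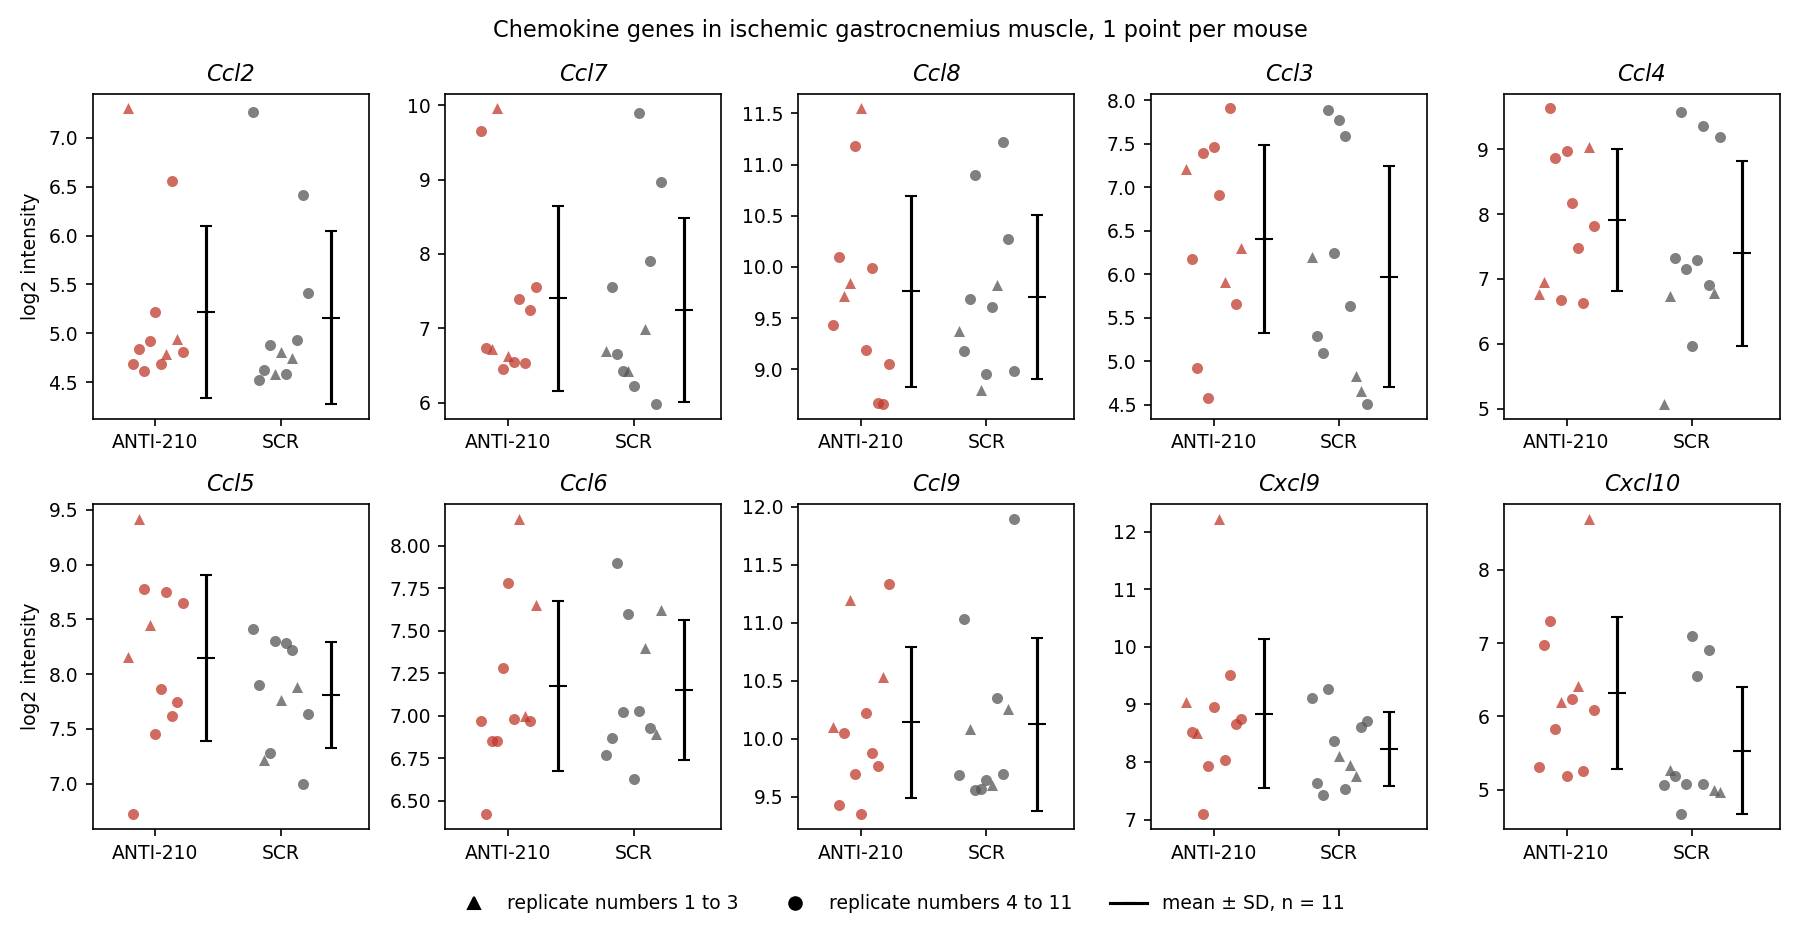
Log2 intensity of the brightest probe of each chemokine gene (vertical axis, own scale per panel) in ANTI-210 and SCR muscles. Each point is 1 mouse, triangles are replicate numbers 1 to 3, circles are numbers 4 to 11, and the bar is the mean ± SD of 11 mice; the groups overlapped for all 10 genes.

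Cxcl10 encodes the interferon-induced ligand of CXCR3 that was first named as an interferon-inducible protein. Its brighter probe read 5.19, 6.19 and 8.70 (lowest, median and highest) in the 11 ANTI-210 muscles, against 4.67, 5.07 and 7.09 in the 11 SCR muscles. All 11 ANTI-210 mice lay above the SCR median, yet the ranges overlapped, since SCR replicates 6, 7 and 8 read 7.09, 6.90 and 6.55. The means were 6.32 ± 1.04 in ANTI-210 and 5.53 ± 0.87 in SCR muscles (SD, n = 11 each), a difference of 0.79 with a standard error of 0.39 and a 95% interval of -0.03 to 1.60, with an unadjusted limma p = 0.0589 and an adjusted p = 1. With array weights, which gave the 2 highest SCR mice the lowest weights, the difference was 0.99 and passed the unadjusted threshold (limma p = 0.00658), and it also passed without any 1 of ANTI-210 replicates 5, 6 and 10 or SCR replicates 6, 7 and 8. Its dimmer probe, also near the floor, differed by 0.18 (SE 0.19), although the 2 probes correlated at 0.88 over the 22 mice.

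Cxcl9, which like Cxcl10 binds CXCR3 and is induced mainly by interferon gamma, read 7.09, 8.66 and 12.23 in ANTI-210 muscles, against 7.42, 8.11 and 9.27 in SCR muscles. ANTI-210 replicate 3 stood alone at 12.23, with the next mouse, ANTI-210 replicate 11, at 9.52, a gap of 52.7% of the whole range of the 22 mice. The difference was 0.61 (SE 0.42, 95% interval -0.26 to 1.49, unadjusted limma p = 0.158) and was 0.28 without that mouse. For Cxcl10 it was 0.55 without the same mouse, which read 8.70 there and was again the highest of all.

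Ccl4, an inflammatory chemokine made by activated macrophages and T cells, had the largest difference among the CC genes. Its brighter probe read 6.63, 7.81 and 9.63 in ANTI-210 muscles, against 5.07, 7.16 and 9.58 in SCR muscles, and differed by 0.51 (SE 0.52, 95% interval -0.57 to 1.60, unadjusted limma p = 0.338). The high ends coincided, with ANTI-210 replicate 11 at 9.63 and SCR replicate 6 at 9.58, and the lowest value belonged to SCR replicate 2. The dimmer probe gave 0.44 (SE 0.37) and correlated with the brighter one at 0.94.

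Ccl3, a ligand of CCR1, read 4.58, 6.31 and 7.91 in ANTI-210 muscles, against 4.51, 5.64 and 7.89 in SCR muscles. Its difference was 0.43 (SE 0.49, 95% interval -0.58 to 1.44, unadjusted limma p = 0.388), and 9 of 11 ANTI-210 mice were above the SCR median. The ends of the 2 ranges were nearly the same.

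Ccl5 is the member of this group best known from T and NK cells. It read 6.72, 8.16 and 9.42 in ANTI-210 muscles, against 7.00, 7.88 and 8.41 in SCR muscles. In 5 of 11 ANTI-210 mice it was above the highest SCR mouse, while the lowest mouse of all, replicate 6, was also an ANTI-210 mouse. The difference was 0.34 (SE 0.26, 95% interval -0.21 to 0.88, unadjusted limma p = 0.210).

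The monocyte chemoattractant genes did not follow the treatment groups but separated 4 mice, drawn from both, from the rest. Ccl2, the principal ligand of CCR2, read 7.30 in ANTI-210 replicate 3 and 6.56 in ANTI-210 replicate 11, against 7.26 in SCR replicate 6 and 6.41 in SCR replicate 7. The other 18 mice lay at 5.41 or below, near the floor, and the medians were 4.84 in ANTI-210 and 4.81 in SCR muscles. The group difference of Ccl2 was 0.06 (SE 0.36, 95% interval -0.70 to 0.81, unadjusted limma p = 0.880).

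Ccl7, another CCR2 ligand, placed the same 4 mice on top, at 9.96 and 9.65 in ANTI-210 replicates 3 and 11, against 9.89 and 8.97 in SCR replicates 6 and 7, with the other 18 mice at 7.90 or below. Its brighter probe differed by 0.16 (SE 0.51, unadjusted limma p = 0.761) and its dimmer probe by 0.29 (SE 0.52), and these 2 probes correlated at 0.97. Ccl8, which is grouped with these genes by its family and in the mouse is known as a ligand of CCR8, read 8.66, 9.72 and 11.55 in ANTI-210 muscles, against 8.80, 9.61 and 11.22 in SCR muscles, and its 4 highest mice were again these 4. The Ccl8 difference was 0.05 (SE 0.36, 95% interval -0.69 to 0.80, unadjusted limma p = 0.882).

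Ccl6 and Ccl9 encode CCR1 ligands that are prominent in mouse macrophages and other myeloid cells. Ccl9 read 9.35, 10.05 and 11.34 in ANTI-210 muscles, against 9.56, 9.70 and 11.90 in SCR muscles, with SCR replicate 6 the highest of all mice. Ccl6 read 6.42, 6.98 and 8.16 in ANTI-210 muscles, against 6.63, 7.02 and 7.90 in SCR muscles. Both had intervals centered close to 0, with differences of 0.02 (SE 0.29, 95% interval -0.58 to 0.61) for Ccl9 and 0.02 (SE 0.19, 95% interval -0.37 to 0.41) for Ccl6. Of the intervals of the 10 genes, that of Ccl6 was the narrowest.

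**Figure D2:**
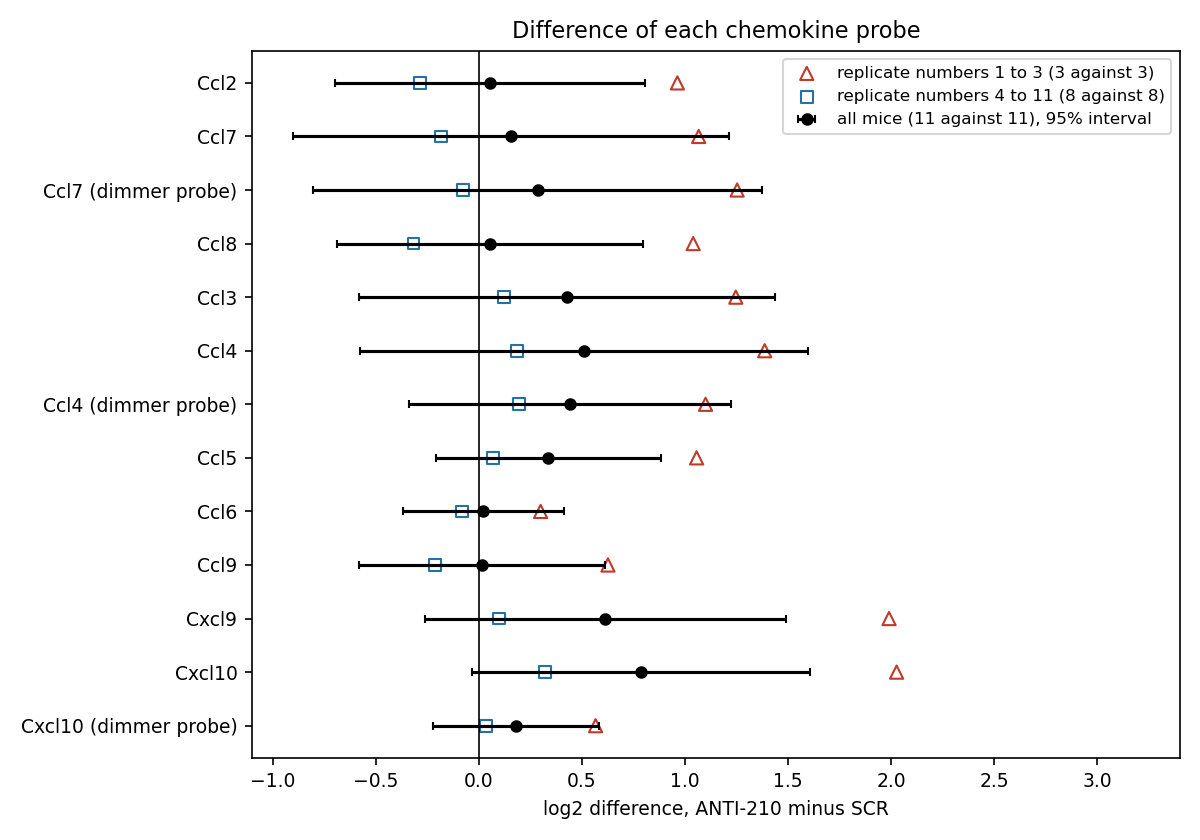
Difference of each of the 13 chemokine probes in log2 units, with SCR subtracted from ANTI-210 (horizontal axis), for all 22 mice with the 95% interval of the limma fit and, without intervals, for replicate numbers 1 to 3 and 4 to 11. All 13 intervals of the full comparison include 0, and for every probe the triangle of numbers 1 to 3 lies to the right of the square of numbers 4 to 11.

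The positive differences came largely from replicate numbers 1 to 3. In these 3 ANTI-210 and 3 SCR mice the 10 genes differed by 0.30 to 2.03 with a median of 1.06, whereas in numbers 4 to 11 the differences ran from -0.32 to 0.32 with a median of -0.01, and 5 of 10 were positive. Cxcl10 read 6.41, 6.19 and 8.70 in ANTI-210 replicates 1, 2 and 3, against 4.96, 4.99 and 5.27 in SCR replicates 1, 2 and 3. Cxcl9 read 9.05, 8.51 and 12.23 in these ANTI-210 mice, against 7.76, 7.95 and 8.11 in these SCR mice. Ccl5 read 8.45, 8.16 and 9.42 in ANTI-210, against 7.76, 7.22 and 7.88 in SCR.

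In numbers 1 to 3 the groups did not overlap, ANTI-210 being higher, for these 3 genes and for the dimmer Ccl4 probe, that is for 4 of 13 chemokine probes. The same was true of 16.2% of all probes, and of 28.5% of the 14412 probes with a mean of 6 or above. An exact two-sided permutation test of 3 against 3 mice cannot go below p = 0.1, which was reached by these 4 probes. Within numbers 1 to 3, limma called Cxcl10 (unadjusted p = 0.0217), Ccl5 (unadjusted p = 0.0243) and Ccl3 (unadjusted p = 0.0491), 3 of the 10 genes, while 34.7% of all genes were called in the same mice in either direction and 14.5% of all probes were called higher. Of all genes 17.6% were called with ANTI-210 higher, which is the direction of these 3. After adjustment over all probes none of the 3 passed, the lowest adjusted limma p being 0.0970 for Cxcl10.

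ANTI-210 replicate 3 made up part of these differences. With this mouse left out of numbers 1 to 3, an alternative chosen after the values were seen, Cxcl10 differed by 1.23, Cxcl9 by 0.84, Ccl5 by 0.69 and Ccl3 by 0.88. In this fit of 2 ANTI-210 and 3 SCR mice limma called Cxcl10, Ccl5 and Cxcl9 (unadjusted p = 0.00557) and no longer Ccl3, among 24.6% of all probes, and Cxcl10 had an adjusted limma p = 0.0213, as 3475 of all 38563 probes did at a threshold of 0.05. The difference of Ccl7 was then -0.03 and that of Ccl2 0.15, against 1.07 and 0.96 with the mouse included. The dimmer Cxcl10 probe differed by -0.00333 without the mouse, so its 2 probes parted in these mice.

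In numbers 4 to 11 no chemokine probe passed the limma threshold, against 2.54% of all probes, and exact permutation p values of 8 against 8 mice were between 0.470 and 0.902. Cxcl10 had the largest positive difference there, 0.32, with an exact p of 0.474, and Ccl8 the largest negative one, -0.32, with an exact p of 0.470. Whether the treatment difference itself differed between the 2 sets was tested with an interaction term, and the smallest values were p = 0.0396 for Cxcl9 and p = 0.0557 for Cxcl10, both with an adjusted limma p = 0.448. Of all probes, 11.0% had an unadjusted interaction p under 0.05 and 0 passed after adjustment.

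**Figure D3:**
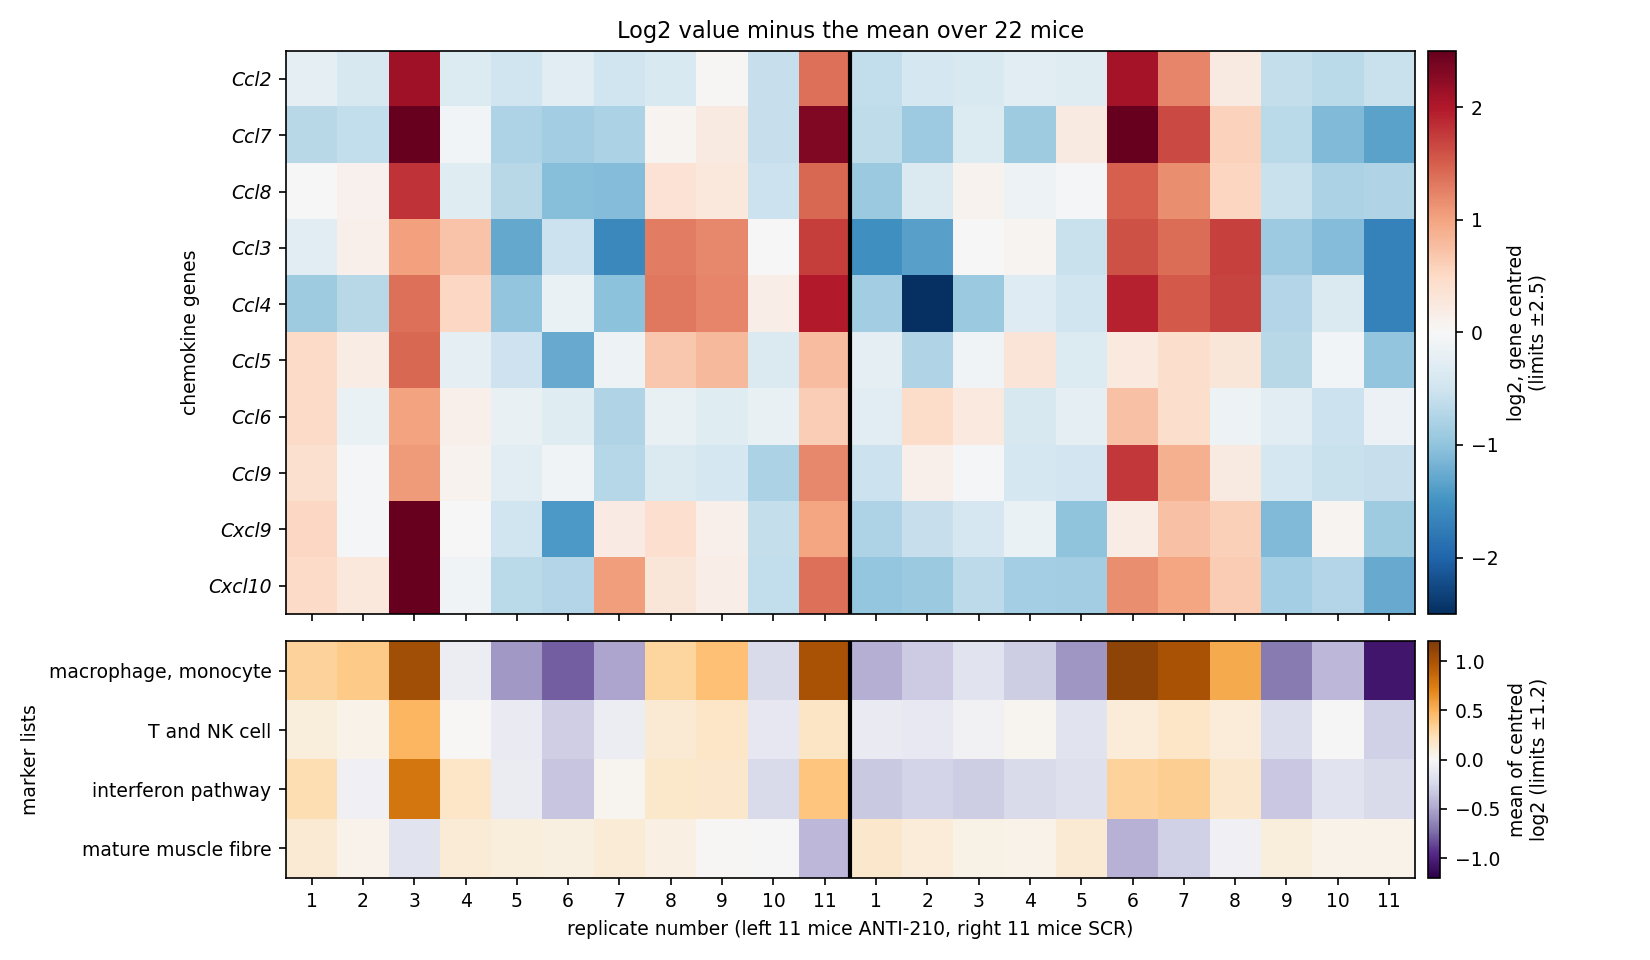
Log2 value of each chemokine gene minus its mean over the 22 mice (upper block) and mean centered log2 value of 4 marker lists (lower block), with the 11 ANTI-210 mice left of the line and the 11 SCR mice right of it, by replicate number. Colors are held at the limits shown beside the blocks. ANTI-210 replicates 3 and 11 and SCR replicates 6 and 7 are high across nearly all chemokines and for macrophage markers.

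For all 10 genes the SD among the mice of either group was larger than the difference between the groups. ANTI-210 replicate 11 was among the 4 highest mice for 10 of 10 genes and ANTI-210 replicate 3 for 8, and among SCR mice replicate 6 was so for 8, replicate 7 for 7 and replicate 8 for 3. At the other end no single mouse was lowest throughout. The lowest Ccl7, Ccl3 and Cxcl10 values belonged to SCR replicate 11, and those of Ccl2 and Ccl4 to other SCR mice. An ANTI-210 mouse was lowest for Ccl8, Ccl5, Ccl6, Ccl9 and Cxcl9. Over the 22 mice Pearson's r between pairs of the 10 genes ran from 0.36 to 0.96 with a median of 0.73 over 45 pairs, and Spearman's coefficient had a median of 0.68. These correlations are descriptions across arrays that share both treatment groups and both sets of numbers, and within numbers 4 to 11 alone the median r was 0.75.

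Pairs within a role group had a median r of 0.90 over 8 pairs, and pairs between role groups one of 0.72 over 37 pairs. The highest were 0.96 between Ccl2 and Ccl7, 0.93 between Ccl7 and Ccl8, and 0.91 between Ccl3 and Ccl4. Across role groups, Ccl2 and Ccl9 had an r of 0.91, and Ccl5 and Cxcl9 one of 0.86. The lowest value, 0.36, was that of Ccl4 and Ccl6. With Ccl3 and Ccl4, the genes of its own role group, Ccl5 had an r of 0.71 and 0.68, and with Cxcl10 one of 0.79, which was 0.68 within numbers 4 to 11. Differences between these correlations were not tested.

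**Figure D4:**
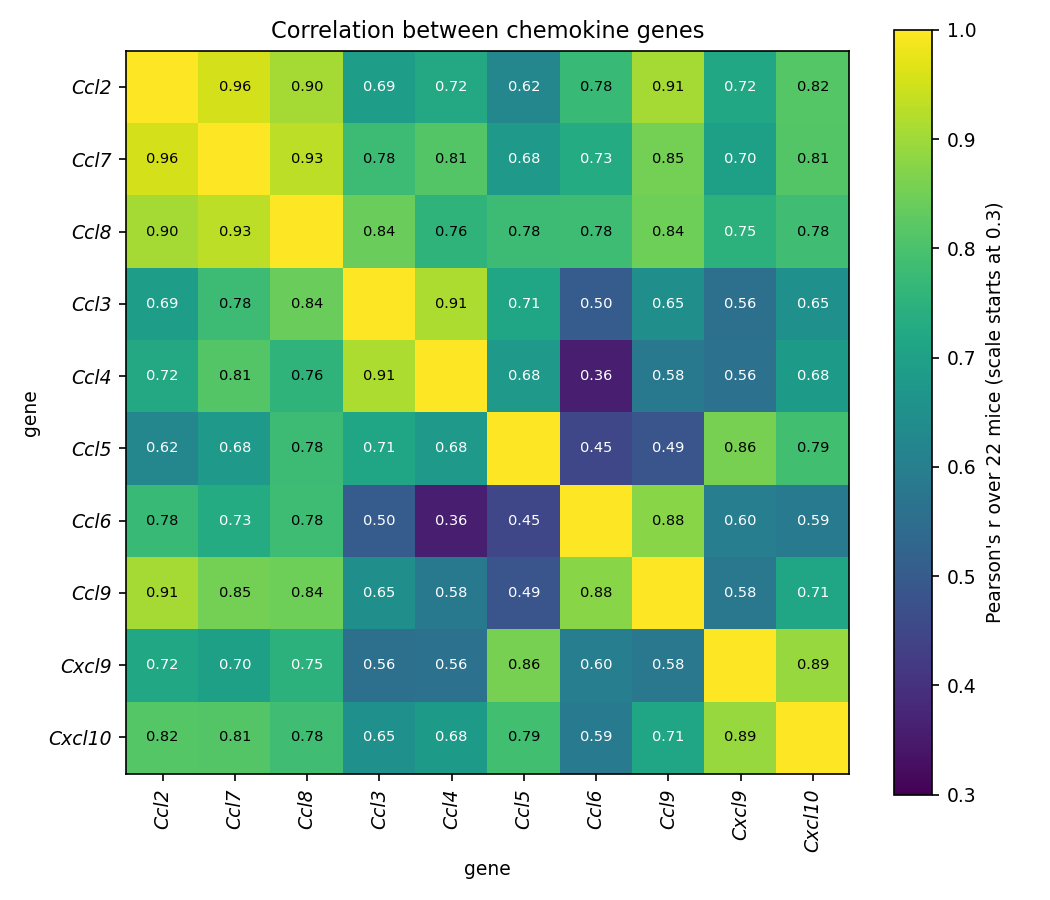
Pearson's r over 22 mice between each pair of the 10 chemokine genes, both axes ordered by role (monocyte chemoattractants, inflammatory chemokines Ccl3 to Ccl5, CCR1 ligands of myeloid cells, CXCR3 ligands). Every pair is positive, from 0.36 for Ccl4 with Ccl6 to 0.96 for Ccl2 with Ccl7.

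To describe which cells' transcripts the chemokines varied with, each gene was set against the mean centered log2 value of 5 lists of marker or pathway genes across the 22 mice, 50 relations in all. Ccl2 and Ccl7 were left out of the pooled values, because their largest gap, 36.0% and 26.9% of the range, set 4 mice apart from the other 18 and was over 25% of the range. The largest gap of Ccl8 set the same 4 mice apart but was 21.8% of its range, so that Ccl8 was kept. The largest gaps of Cxcl9 and Cxcl10, 52.7% and 34.7% of the range, were also over 25%. They set only 1 mouse apart, ANTI-210 replicate 3, and genes were left out only where more than 1 mouse lay on each side. For the 8 genes kept, r with 18 macrophage and monocyte markers was 0.70 to 0.92 and Spearman's coefficient 0.64 to 0.89. All 8 passed the permutation test, with adjusted p between 2.78e-05 and 0.000547 for r. The share of all genes that would pass with any of the 5 lists was not counted. These counts, here and below, are therefore not results particular to the chemokines. The highest was Ccl8 (r = 0.92, Spearman 0.89), at a permutation p of 1e-05, the smallest that 100000 resamples can give, and the lowest Ccl6. In the 18 mice below its gap, looked at after the values were seen, Ccl8 had an r of 0.81 and a Spearman's coefficient of 0.80.

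For r this relation held without the 2 mice farthest from the median of the marker level (r of 0.55 to 0.90, all 8 passing after adjustment), within ANTI-210 mice (0.69 to 0.96), within SCR mice (0.67 to 0.97) and within numbers 4 to 11 (0.75 to 0.95). In the 6 mice of numbers 1 to 3 r was 0.65 to 0.97 and 5 of 8 passed. Spearman's coefficient passed for all 8 genes without the 2 mice and within numbers 4 to 11, but for 5 of 8 within ANTI-210, 6 of 8 within SCR and 0 of 8 in numbers 1 to 3. Among the 18 mice below the gap, an alternative chosen after the values were seen, r with the macrophage markers was 0.64 for Ccl2 and 0.65 for Ccl7, each with an adjusted permutation p of 0.0166 over 10 relations.

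With 14 T and NK cell markers, among them Cd3d and Nkg7, r was 0.59 to 0.96. Ccl5 was the highest (r = 0.96, Spearman 0.95), followed by Cxcl9 (r = 0.93, Spearman 0.93) and Cxcl10 (r = 0.85, Spearman 0.79), and Ccl6 the lowest. All 8 passed after adjustment, and 7 of 8 did without the 2 farthest mice, when r was 0.39 to 0.94. Within numbers 4 to 11 r was 0.48 to 0.96 and in numbers 1 to 3 it was 0.72 to 0.996. Within ANTI-210 mice r was 0.61 to 0.97 and 6 of 8 passed, and within SCR mice 0.40 to 0.94 and 7 of 8. Spearman's coefficient passed for 6 of 8 within ANTI-210, 5 of 8 within SCR and 0 of 8 in numbers 1 to 3. Of these 14 markers 10 were near the floor, so the level itself moved by less than 1 log2 unit, between 5.48 and 6.25 in ANTI-210 mice and between 5.49 and 5.95 in SCR mice. Cd8b1 averaged 11.52 over all mice, with an SD of 0.10 in ANTI-210 and 0.13 in SCR, although Cd8a averaged 4.49. Whether the Cd8b1 probe reads T cells here was not tested.

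With 27 genes of the interferon pathway, none of them a chemokine, r was 0.66 to 0.93. Cxcl10 (r = 0.93, Spearman 0.85) and Cxcl9 (r = 0.90, Spearman 0.90) were the highest, and all 8 passed after adjustment. Without the 2 farthest mice, ANTI-210 replicates 3 and 11, r was 0.43 to 0.88 and 7 of 8 passed. Within numbers 4 to 11 r was 0.69 to 0.89 and in numbers 1 to 3 it was 0.77 to 0.98, where 4 of 8 passed. Within ANTI-210 mice r was 0.58 to 0.95 and 6 of 8 passed, and within SCR mice 0.56 to 0.96 and 7 of 8. Spearman's coefficient passed for 6 of 8 within ANTI-210, 2 of 8 within SCR and 0 of 8 in numbers 1 to 3.

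With 15 genes of mature muscle fibers the chemokines ran the other way, with r of -0.84 to -0.49 and Spearman's coefficients of -0.70 to -0.37, and 8 of 8 passed after adjustment for r but 6 of 8 for Spearman's coefficient. Ccl9 had the lowest r, -0.84, with a Spearman's coefficient of -0.42. Without the 2 farthest mice r was -0.76 to -0.47 and all 8 passed, but Spearman's coefficient passed for 3 of 8. Within numbers 4 to 11 r was -0.91 to -0.50, and in numbers 1 to 3 it was -0.97 to -0.68 and 2 of 8 passed. Within ANTI-210 mice r was -0.77 to -0.51 and 4 of 8 passed, and within SCR mice -0.94 to -0.59 and 7 of 8. Spearman's coefficient passed for 1 of 8 within ANTI-210, 3 of 8 within SCR and 0 of 8 in numbers 1 to 3. The fiber genes were near the upper end of the array's range, with a mean level of 14.6 in both groups, and the spread of their level came mainly from a few mice, SCR replicates 6 and 7 and ANTI-210 replicate 11 being the lowest. With 11 neutrophil markers r was 0.01 to 0.31 and none of the 8 passed for r, but 8 of these 11 markers were near the floor, which leaves little range to vary with. Spearman's coefficient passed for 1 of the 8 genes, and also for Ccl2, which was not among these 8 (0.48, adjusted permutation p = 0.0322). Without the 2 farthest mice, ANTI-210 replicates 4 and 6, r with neutrophil markers was 0.13 to 0.47. There 1 of the 8 passed for r, Ccl8 (r = 0.47, adjusted permutation p = 0.0493), and 0 for Spearman's coefficient.

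**Figure D5:**
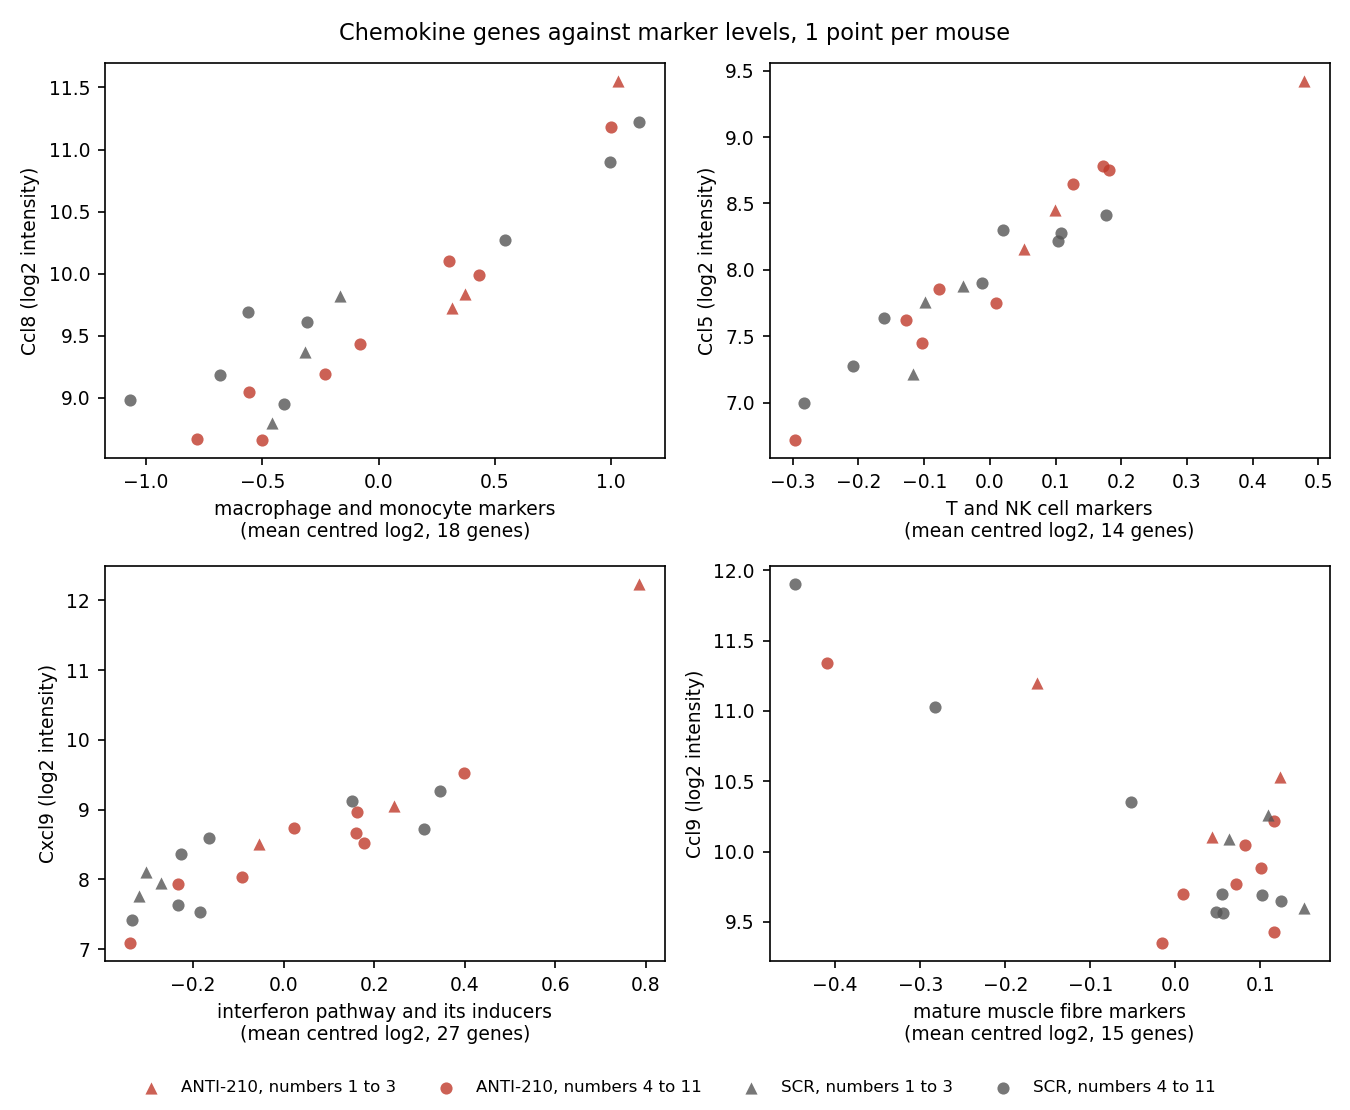
Log2 intensity of 4 chemokine genes (vertical axes) against the mean centered log2 value of the marker list named under each panel (horizontal axes), 1 point per mouse, colored by treatment with triangles for replicate numbers 1 to 3. Points of both treatments lie along the same trend for Ccl8 with macrophage markers (r = 0.92) and Ccl5 with T and NK cell markers (r = 0.96), while the panel of Ccl9 with mature fiber genes has 4 mice apart from the others.

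Of the marker levels, 4 were not independent of each other. Macrophage markers correlated with T and NK cell markers at 0.89, with interferon genes at 0.86 and with mature fiber genes at -0.79 over the 22 mice, so these 4 lists cannot be told apart as partners of a given chemokine. The neutrophil level correlated with them at 0.0038 to 0.16. The macrophage level, a mean of log2 values, was 8.69 ± 0.60 in ANTI-210 and 8.45 ± 0.70 in SCR muscles (SD, n = 11 each; ranges 7.79 to 9.60 and 7.50 to 9.69). Its difference was 0.89 in numbers 1 to 3 and -0.01 in numbers 4 to 11, the same order as for the chemokines, and 0 of its 18 genes passed over all mice. The part that these markers have in the chemokine differences was not tested. ANTI-210 replicates 3 and 11 and SCR replicates 6 and 7, high for most chemokines, were also highest on the first principal component. That component held 63.6% of the variance. How many genes outside the chemokines have such r with these lists was not counted, so it is not known whether these r are particular to the chemokines.

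The genes most similar to each role group over the 22 mice, with each treatment mean subtracted first, were looked for among 8820 genes with a mean of 6 or above. For Ccl2, Ccl7 and Ccl8 they were Alox5ap, which assists leukotriene synthesis, Nop58, Arhgdib, the hexokinase gene Hk3 and Rhog, with r of 0.94 to 0.95. For Ccl3, Ccl4 and Ccl5 they were Slc2a6, Serf1, the lysosomal protease gene Ctss, the macrophage lectin gene Lgals3 and Cd180, with r of 0.93 to 0.96. For Ccl6 and Ccl9 they were Ago2, Jdp2, Nup98, Ecm1 and Pgam1, with r of 0.89 to 0.91. For Cxcl9 and Cxcl10 they were the proteasome activator gene Psme1, the nonclassical MHC gene H2-T23, the immunoproteasome gene Psmb8, Dusp2 and the peptide transporter gene Tap1, with r of 0.92 to 0.93. In numbers 4 to 11 alone the r of these 20 genes was between 0.89 and 0.97. These mice were among the 22 by which the genes were chosen, so this is no separate check. None of the 20 genes passed the unadjusted threshold between ANTI-210 and SCR.

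The receptors of these chemokines were mostly at the floor of the array. Of 23 chemokine receptor genes 20 were measured, 14 of them near the floor, and 0 passed the unadjusted threshold. Ccr1, Ccr2, Ccr3 and Cxcr3 averaged 4.47, 4.92, 4.61 and 5.24 over all mice, all near the floor. The decoy receptor gene Ackr1, which is expressed by venular endothelium, averaged 8.18 ± 0.32 in ANTI-210 and 8.04 ± 0.29 in SCR muscles (SD, n = 11 each), a difference of 0.14 (SE 0.13, unadjusted limma p = 0.281). Ackr2 was not matched to a probe.

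Among 13 other CC chemokines 1 passed, Ccl21a, the lymphatic ligand of CCR7, which rose by 0.22 (SE 0.11, unadjusted limma p = 0.0498, adjusted p = 1), with differences of 0.04 in numbers 1 to 3 and 0.29 in numbers 4 to 11. Among 14 other CXC, C and CX3C chemokines 2 passed, both higher in ANTI-210. Cxcl12, the CXCR4 ligand made by stromal and endothelial cells, averaged 11.32 ± 0.21 in ANTI-210 and 10.97 ± 0.47 in SCR muscles, a difference of 0.35 (SE 0.15, unadjusted limma p = 0.0289) that was 0.80 in numbers 1 to 3 and 0.18 in numbers 4 to 11, and Cxcl3 differed by 0.05 near the floor. These 3 of 27 genes stand against 3.47% of all genes that passed in either direction.

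Of the pathways that induce chemokines, 0 of 19 genes of the NF-kB pathway passed, with a median difference of 0.05. Of 27 interferon pathway genes 6 passed and all 6 were higher in ANTI-210, with a median difference over the list of 0.21 and 22 of 27 positive. Of all genes, 3.47% passed in either direction. The interferon list was chosen with earlier results of these data known, so its count is no independent result. The 4 with the smallest p were Gbp3 (0.57, SE 0.17), Rsad2 (0.55, SE 0.20), Gbp2 (0.60, SE 0.23) and Irgm1 (0.31, SE 0.14), which encode interferon-induced GTPases and, for Rsad2, the antiviral protein viperin. Their unadjusted limma p ran from 0.00332 for Gbp3 to 0.0368 for Irgm1, with an adjusted p of 1 for each. Like the chemokines they differed more in numbers 1 to 3, where the list's median was 0.72, than in numbers 4 to 11, where it was 0.06. Ifng, the gene of interferon gamma itself, was near the floor at a mean of 4.62.

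Markers of the other cell types that the muscle holds were counted in the same fit. Of the T and NK cell markers 1 of 14 passed, Cd3d, at 5.49 ± 0.43 in ANTI-210 and 5.12 ± 0.29 in SCR muscles, near the floor, with a difference of 0.37 (SE 0.15, unadjusted limma p = 0.0214) that was 0.58 in numbers 1 to 3 and 0.30 in numbers 4 to 11. Of 12 endothelial genes 5 passed and were higher in ANTI-210, led by Emcn, which codes for a sialomucin of capillary and venous endothelium, at 0.21 (SE 0.07, unadjusted limma p = 0.00526), against 3.47% of all genes that passed in either direction. After adjustment over all probes 0 of the 12 passed. The endothelial list, too, was chosen with earlier results of these data known, so its count is no independent result. The median difference of the endothelial list was 0.39 in numbers 1 to 3 and 0.05 in numbers 4 to 11, and Emcn differed by 0.50 in numbers 1 to 3 and by 0.10 in numbers 4 to 11. Of 11 neutrophil markers 1 passed, Mmp8, with a difference of -0.05 near the floor. None of the 8 fibroblast markers, 15 mature fiber genes, 12 regenerating fiber and satellite cell genes, 5 B cell markers or 7 dendritic cell markers passed, and all 7 dendritic cell markers were near the floor.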

How the data were processed

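Total RNA (200 ng per mouse) was amplified and labeled, and the product was hybridized to Illumina MouseWG-6 v2 BeadChips. The authors summarized beads in GenomeStudio, quantile normalized and filtered the values with beadarray and deposited them as log2 values, 1 per probe and array. The log base is not stated in words and was taken from the range. Software versions, filter thresholds and the assignment of mice to chips were not given in the sources used here. Array number, not read depth, limits precision. Groups and replicate numbers came from the sample titles, each mouse being 1 replicate.

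Differences (ANTI-210 minus SCR, two-sided) were fitted over all 38563 probes with limma 3.58.1 (lmFit, eBayes without trend) in R 4.3.3, without covariates, and adjusted by Benjamini-Hochberg over all probes. A gene was represented by its brightest probe. Permutation tests used 100000 resamples in NumPy 2.4.6, or all regroupings where few. The scripts were tested on simulated data. Named genes were all 10 chemokines, their receptors, up to 4 genes of each list with the smallest p, and the 5 genes most like each role group. Endothelial, interferon and other lists, like the members, were chosen with earlier results of these data known. Alternatives covered normalization, moderation, array weights, dim probes, probe choice, the replicate block, sets of numbers and single mice.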

Additional observations from a re-analysis of the deposited data

How the results depend on the processing

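The count of chemokine genes past the unadjusted threshold, 0 of 10, was also 0 with repeated quantile normalization, cyclic loess, median centering, a trended and robust eBayes, the brighter probes alone, the mean of a gene's probes, the set of numbers as a covariate, within numbers 4 to 11 and with the methods' t-test. It was 1 with array weights (Cxcl10, difference 0.99, limma p = 0.00658), where the weights of SCR replicates 6 and 7, 0.376 and 0.449, were the lowest, and where 9.41% of all probes passed. With these weights 15 interferon pathway genes passed instead of 6, 4 T and NK cell markers instead of 1, 3 macrophage markers, 2 receptors, 2 regenerating fiber genes and 2 fibroblast markers instead of 0, 1 other CXC chemokine instead of 2 and 0 other CC chemokines instead of 1. It was 3 within numbers 1 to 3 (Ccl3, Ccl5 and Cxcl10, with 29.3% of all probes), and 3 there with ANTI-210 replicate 3 left out (Ccl5, Cxcl9 and Cxcl10, with 24.6% of all probes). Leaving out single mice gave 0 to 1, the 1 being Cxcl10 without ANTI-210 replicate 5, 6 or 10 or SCR replicate 6, 7 or 8; the cause was not tested. With the replicate number as a block the count was 0, and the number did not pair the mice: deviations of same-numbered mice correlated at -0.66 to 0.64, 4 of 11 pairs were over 0.1, and 1 of 11 ANTI-210 mice correlated best with its own number.

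Signs turned for the genes with differences near 0. Within numbers 4 to 11 the differences were -0.32 for Ccl8, -0.28 for Ccl2, -0.0813 for Ccl6, -0.18 for Ccl7 (dimmer probe -0.0775) and -0.21 for Ccl9. In numbers 1 to 3 without ANTI-210 replicate 3 Ccl7 was -0.0283 and the dimmer Cxcl10 probe -0.00333. Leaving out single mice gave -0.13 to 0.20 for Ccl8, -0.15 to 0.27 for Ccl2, -0.0759 to 0.10 for Ccl6, -0.10 to 0.42 for Ccl7 and -0.10 to 0.19 for Ccl9, with Ccl2 at -0.15 and Ccl7 at -0.10 without ANTI-210 replicate 3. Correlations with neutrophil markers turned for Ccl5 (-0.0749 within ANTI-210, -0.11 within numbers 4 to 11) and Cxcl9 (-0.0896 within SCR, -0.10 within numbers 4 to 11).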
